A study of Mus musculus with 141 samples.

Results

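Genes of T cells and natural killer (NK) cells were examined by name in RNA-seq libraries of whole liver, lung and kidney, and 10 were read: Cd3d, Cd3e, Cd3g, Cd8a, Ncr1, Klrd1, Gzma, Gzmb, Prf1 and Nkg7. All 10 were present among the 24423 genes of the deposited files. They were chosen by what their products do, although earlier results of these data were known when the choice was made. The libraries came from the Collaborative Cross, whose recombinant inbred strains descend from a common set of founders. The 47 strains gave 1 male mouse each, 8 to 12 weeks old, and each mouse gave all 3 tissues, which makes 3 groups of 47 libraries. All mice, in every group, had been kept in inhalation chambers with clean air for 6 hours a day on weekdays over 2 weeks, and RNA was used at an integrity number of at least 7.0. With 1 mouse per strain, a difference between strains cannot be told apart from a difference between individual mice, and the p-values measure the spread between these mice.

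T cells recognise antigen through the T cell receptor, which has no signalling domain of its own and relies on the CD3 chains beside it. Cytotoxic T cells add the coreceptor CD8, while NK cells lack the receptor and are steered by activating and inhibitory receptors such as NKp46 and CD94. Both cell types kill through the same granules, in which perforin opens the target membrane to granzymes. In a homogenate of whole tissue, fewer cells of a type and less RNA per cell cannot be told apart.

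The genes lie on 6 chromosomes in the build of the files (Build37, coordinates from GENCODE vM1 on NCBIM37). Cd3g (chr9:44777655-44788514, minus strand), Cd3d (chr9:44789876-44795135, plus strand) and Cd3e (chr9:44806826-44817673, minus strand) form a cluster of 40019 bases in which the starts of Cd3g and Cd3d are 1362 bases apart and point away from each other. Ncr1 (chr7:4289326-4296766) and Nkg7 (chr7:50692443-50693616) lie far apart on chromosome 7, and Cd8a (chr6:71323421-71329165) and Klrd1 (chr6:129541800-129548793) lie far apart on chromosome 6. Prf1 is at chr10:60760584-60767011, Gzma at chr13:113884033-113891187 and Gzmb at chr14:56877693-56881097. Windows of 50 bases, the read length, were nearly all particular to their gene, since at most 0.314% of the windows of any of these genes occurred in a transcript of another gene.

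The sequences before the starts of 5 of these genes are shown because the genes form the most closely correlated pairs in lung, described further on. Each run holds the 250 bases before the start in RefSeq on GRCm38.p6, read 5′ to 3′ on the strand of the gene, and capitals mark the motifs TGTGGT (a core of RUNX sites), AGGAAG (a core of ETS sites) and AGGTGT (a T-box half-site) on either strand.
Ncr1, chr7:4337465-4337714, plus strand: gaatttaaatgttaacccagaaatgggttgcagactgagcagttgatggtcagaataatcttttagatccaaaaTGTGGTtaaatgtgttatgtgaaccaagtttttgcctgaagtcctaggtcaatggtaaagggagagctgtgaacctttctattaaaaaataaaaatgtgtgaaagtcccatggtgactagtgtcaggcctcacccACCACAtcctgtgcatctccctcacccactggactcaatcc
Gzma, chr13:113100982-113101231, minus strand: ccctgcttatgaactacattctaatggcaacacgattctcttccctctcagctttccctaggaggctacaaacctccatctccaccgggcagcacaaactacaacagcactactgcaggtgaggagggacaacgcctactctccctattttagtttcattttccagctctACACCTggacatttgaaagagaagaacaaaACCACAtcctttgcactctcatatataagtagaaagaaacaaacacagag
Prf1, chr10:61297586-61297835, plus strand: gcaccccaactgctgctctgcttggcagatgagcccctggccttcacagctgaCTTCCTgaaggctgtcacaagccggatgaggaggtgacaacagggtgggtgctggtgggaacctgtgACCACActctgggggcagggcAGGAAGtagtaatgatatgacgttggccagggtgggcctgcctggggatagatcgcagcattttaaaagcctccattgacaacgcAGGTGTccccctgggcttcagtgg
Cd3d, chr9:44981536-44981785, plus strand: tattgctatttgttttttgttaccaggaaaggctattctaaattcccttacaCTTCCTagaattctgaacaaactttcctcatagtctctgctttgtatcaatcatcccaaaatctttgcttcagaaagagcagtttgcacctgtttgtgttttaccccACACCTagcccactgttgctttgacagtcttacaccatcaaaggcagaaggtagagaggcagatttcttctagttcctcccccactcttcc
Cd3g, chr9:44980432-44980681, minus strand: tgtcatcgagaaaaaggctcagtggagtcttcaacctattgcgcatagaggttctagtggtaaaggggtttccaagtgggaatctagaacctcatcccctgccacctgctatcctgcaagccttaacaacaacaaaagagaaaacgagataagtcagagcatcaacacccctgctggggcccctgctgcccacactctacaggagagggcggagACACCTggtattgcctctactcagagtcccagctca

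TGTGGT was found before the starts of 5 of the 9 genes with an entry in the RefSeq table, Ncr1, Gzma, Gzmb, Prf1 and Nkg7, and before none of Cd3d, Cd3e, Cd3g and Cd8a. It was found in 14.0% of all 32851 such windows. AGGTGT was found in 6 of the 9 (Cd3d, Cd3e, Cd3g, Gzma, Nkg7 and Prf1) against 11.8% of all windows, and AGGAAG in 4 of the 9 (Cd3d, Cd3e, Nkg7 and Prf1) against 29.5%. Of the other motifs searched on both strands, TTCNNNGAA (STAT) was in 2 of the 9, TGACGT (CRE) in 2 and TGANTCA (AP-1) in 1, against 7.02%, 6.47% and 6.75% of all windows. A match is a description of these letters and not of binding.

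Total counts ranged from 1738046 to 42158454 in liver, from 2829104 to 17585682 in lung and from 3046695 to 15028553 in kidney. Rn45s, a ribosomal transcript, made up 34.9% of counts in the median liver, 18.0% in the median lung and 25.4% in the median kidney, and 71.7% in 1 lung. Levels are given in CPM, the usual count rate per library, on totals scaled by TMM, a normalization between libraries of unlike composition. A count of 3, up to which a gene was taken as not resolved, corresponded on that scale to a median of 0.544 CPM in liver, 0.220 in lung and 0.352 in kidney. Each tissue carried its marker, with Alb, the albumin gene of hepatocytes, at a median of 72641 CPM in liver and 36.1 in lung, and Sftpc, the surfactant gene of alveolar cells, at 3102 CPM in lung and 3.70 in kidney. Kap, an abundant gene of the mouse kidney, had a median of 15368 CPM in kidney and 9.33 in lung. The globin genes Hba-a1 and Hbb-b1 were listed at 0 in all lungs and livers, so that they give no measure of blood.

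The 3 CD3 genes were read from lung and scarcely from liver or kidney. Cd3e, whose product sits in every CD3 pair, had between 2 and 148 counts in lung with a median of 29, between 0 and 8 in liver with a median of 1, and between 0 and 9 in kidney with a median of 1. Its lung level was above that of the liver and of the kidney in 47 of 47 mice on the TMM scale. Across mice, however, 12 lungs were at or below the highest liver and 23 at or below the highest kidney. In the limma-voom fit, Cd3e had a log2 fold change of -3.16 for liver over lung (SE 0.217, adjusted p = 6.62e-26) and of 3.80 for lung over kidney (SE 0.217, adjusted p = 2.42e-31). Cd3d, the delta chain, had 1 to 151 counts in lung (median 21), 0 to 6 in liver (median 1) and 0 to 7 in kidney (median 1). Its log2 fold changes were -2.80 for liver over lung and 3.43 for lung over kidney, with 18 lungs at or below the highest liver and 21 at or below the highest kidney. Cd3g, the gamma chain, had 0 to 267 counts in lung (median 37), 0 to 32 in liver (median 2) and 0 to 15 in kidney (median 2). Its lung was above the liver in 45 of 47 mice, and its fitted log2 fold changes, -2.65 and 3.25, were the smallest of the genes that passed the filter. All 47 lungs were at or below the highest liver for Cd3g, that of CC016, and 40 were at or below the highest kidney.

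Cd8a, the alpha chain of the CD8 coreceptor, was not resolved in any tissue. It had 0 to 8 counts in lung with a median of 1, and 40 of the 47 lungs held at most 3. It passed 1 CPM in 0 libraries of any tissue. Cd8b1, which encodes the beta chain, had 0 to 99 counts in lung with a median of 23, in the range of the CD3 genes, although 5.92% of its 50-base windows also occur in transcripts of other genes. The deposited files name 2 transcripts for Cd8a and 1 for Cd8b1 and for each of the 9 other genes. In GENCODE vM1, 97.4% of the windows of the longest Cd8a transcript also occur in its other transcript, but so do 88.4% of those of Gzma, 88.3% of Klrd1, 71.5% of Nkg7 and 32.5% of Cd3g in other transcripts of the same gene, and these 4 genes were well counted. Over all genes of the files, the median lung count was at most 3 for 54.8% of the 6112 genes with more than 1 transcript and for 40.5% of the 18311 genes with 1. Cd247, a context gene with 5 transcripts, had a median of 38 counts in lung. The part of transcript number in the low count of Cd8a was not tested.

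The NK cell receptors were likewise highest in lung. Ncr1, which encodes the activating receptor NKp46, had 5 to 232 counts in lung (median 51), 0 to 12 in liver (median 1) and 0 to 15 in kidney (median 2). The lung was the highest tissue in 47 of 47 mice, with log2 fold changes of -3.68 for liver over lung (SE 0.131, adjusted p = 7.79e-48) and 4.02 for lung over kidney (SE 0.131, adjusted p = 4.25e-51). Klrd1 encodes CD94, the partner of the NKG2 receptors, and had 1 to 104 counts in lung (median 27), 0 to 14 in liver (median 1) and 0 to 8 in kidney (median 1). It was above 1 CPM in 42 libraries, 1 short of the 43 that the filter asks for. Fitted without that filter, its log2 fold changes were -3.06 for liver over lung and 3.49 for lung over kidney. On the TMM scale, 17 lungs for Ncr1 and 14 for Klrd1 were at or below the highest liver. Against the highest kidney these numbers were 4 and 3.

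Among the granule genes, Gzma had the highest counts and the widest distance between tissues. Gzma encodes granzyme A, a serine protease, and had 2 to 612 counts in lung (median 74), 0 to 34 in liver (median 2) and 0 to 19 in kidney (median 2). Its log2 fold changes were -3.90 for liver over lung (SE 0.114, adjusted p = 2.1e-55) and 4.72 for lung over kidney (SE 0.115, adjusted p = 3.3e-62). Summed over the 47 mice and divided by the summed TMM depth, the lung rate was 14.9 times that of liver and 26.1 times that of kidney. Prf1, the perforin gene, had 5 to 307 counts in lung (median 48), 0 to 12 in liver (median 2) and 0 to 12 in kidney (median 3). On the TMM scale, 7 lungs were at or below its highest liver and 1 at or below its highest kidney. The log2 fold changes of Prf1 were -3.27 and 3.70. Nkg7, which encodes a membrane protein of cytotoxic granules, had 1 to 163 counts in lung (median 30), 0 to 14 in liver (median 1) and 0 to 14 in kidney (median 1), with log2 fold changes of -3.24 and 3.71. Gzmb, the granzyme B gene, had 0 to 180 counts in lung (median 19), 0 to 32 in liver (median 1) and 0 to 15 in kidney (median 1), and it exceeded the liver in 42 of 47 mice. It was above 1 CPM in 41 libraries and, fitted without the filter, had log2 fold changes of -2.04 and 3.0. The tissues overlapped more for these genes than for Prf1 against liver. On the TMM scale, 31 lungs for Gzma, 35 for Nkg7 and 46 for Gzmb were at or below the highest liver, that of CC016. Against the highest kidney these numbers were 3, 1 and 28.

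**Figure D1:**
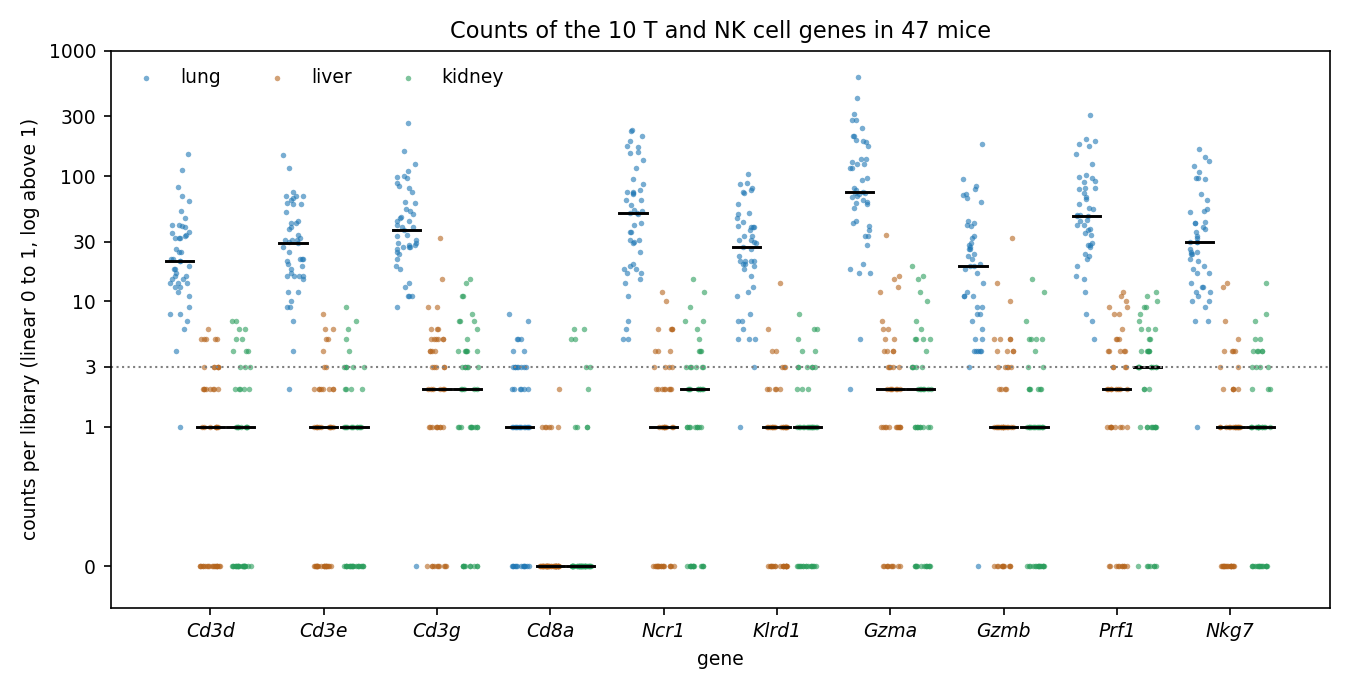
Counts per library of the 10 genes (vertical axis, linear from 0 to 1 and logarithmic above) in lung, liver and kidney of 47 mice. Each point is a library, black bars are medians and the dotted line marks 3 counts; lung medians of 19 to 74 stand above liver and kidney medians of 0 to 3 for every gene but Cd8a, whose lung median is 1.

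Of the 10 genes, 7 passed the filter (over 1 CPM by total counts in 30% or more of all libraries), and they did so through the lung, which makes a difference between tissues a condition of entry. All 7 were called higher in lung than in liver, with q ≤ 0.1 and a log2 fold change of 1 or more in size, as were 31.2% of the 12127 genes tested. All 7 were also called higher in lung than in kidney, as were 24.6% of all tested genes. Without the filter, 9 of the 10 were called higher in lung in each comparison, beside 22.8% and 19.8% of 22652 genes, and Cd8a was not called (log2 fold change of -0.25 for liver over lung, adjusted p = 0.286, and of 0.54 for lung over kidney, adjusted p = 0.0247). The direction and the call held for the 7 in every other fit and scaling in which they were tested, and Cd3d and Cd3e were not tested under the filter of at least 10 counts in 30% of the libraries, which they do not pass. The size of the change was less fixed, as the liver and kidney medians are at or under 3 counts. Over the settings, Cd3e ran from -4.80 to -2.68 for liver over lung and from 2.60 to 4.65 for lung over kidney. Gzma ran from -5.64 to -3.82 and from 4.26 to 5.78.

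Between liver and kidney none of the 10 genes was called, and the sign for the 7 that passed the filter turned with the scaling. Over the 47 mice, summed counts were 67 in liver and 66 in kidney for Cd3e, 95 and 118 for Ncr1, 175 and 148 for Gzma, and 145 and 161 for Prf1. Divided by the summed TMM depth, which is lower for liver, the rates were 0.209 CPM in liver and 0.139 in kidney for Cd3e, 0.296 and 0.248 for Ncr1, 0.545 and 0.311 for Gzma, and 0.452 and 0.339 for Prf1. On this scale liver was above kidney for each gene but Cd8a (0.0249 and 0.0715). The fitted log2 fold changes of liver over kidney lay between 0.34 and 0.82 for the 7 genes that passed the filter, all short of 1, so that 0 of 7 were called against 36.6% of all tested genes. Their adjusted p-values reached 0.014 at most, as 87.7% of all tested genes were at q ≤ 0.1, but the sign depended on the scaling, since 6 of the 7 had negative values on log2(TPM + 1) and all 7 after scaling to total counts. Without the filter, Gzmb had a log2 fold change of 0.95 (adjusted p = 3.71e-05, higher in liver in 29 mice and tied in 4), Klrd1 0.43 and Cd8a 0.29, and these 3 genes were not fitted under the scalings that turned the others. No direction was read for the 7, whose median counts in both tissues are at or under 3.

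**Figure D2:**
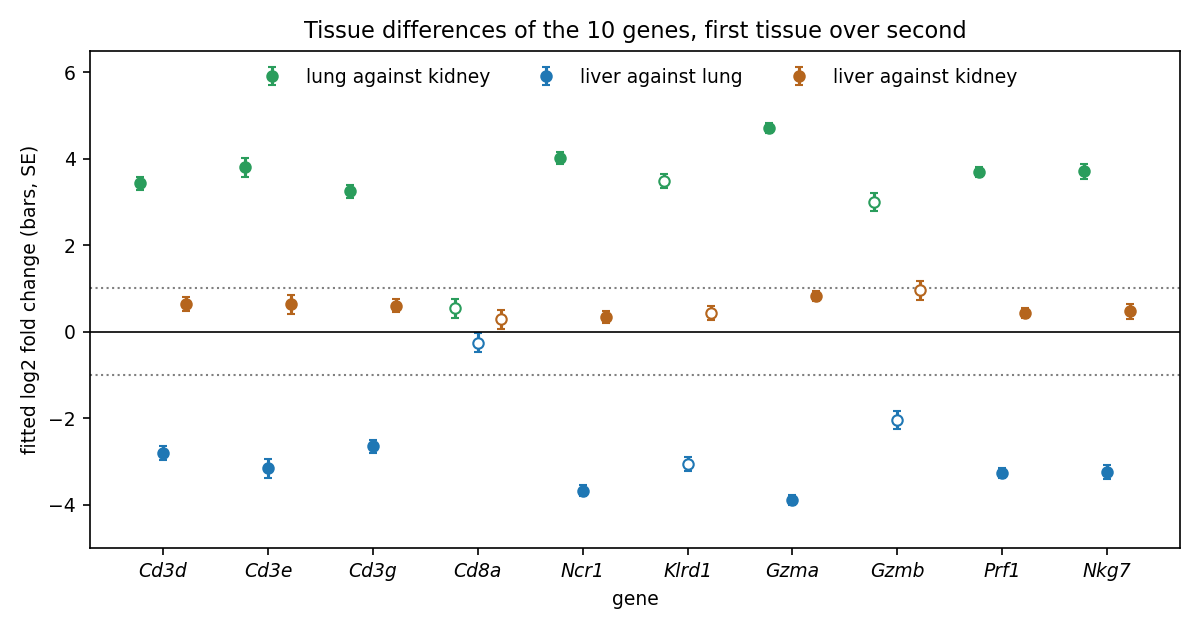
Fitted log2 fold change of the first tissue over the second (vertical axis) for the 10 genes, with bars of 1 SE; filled points are from the filtered limma-voom fit over all libraries and open points from the fit without the filter. Lung against kidney lies between 3.0 and 4.72 and liver against lung between -3.90 and -2.04 for every gene but Cd8a, while liver against kidney stays inside the dotted lines at 1 and -1.

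Among the lungs, levels per transcript length put Gzma first with a median of 33.6 TPM (the deposited unit, in which counts are set against transcript length and library total), followed by Nkg7 with 14.3, Cd3g with 13, Klrd1 and Ncr1 with 10.9 each, Prf1 with 8.38, Cd3e with 7.06, Cd3d with 6.01, Gzmb with 4.11 and Cd8a with 0.18. The order is loose, since Gzma ranged from 1.09 to 199 TPM over the strains (mean 44.2 ± 37.7, SD, n = 47) and Gzmb from 0 to 33.1 (mean 5.98 ± 6.00). No neighbours in this order had means that differed by more than the larger of their SDs. The ratio of the 90th to the 10th percentile of TMM-scaled TPM over strains was 3.49 to 3.88 for the CD3 genes and 4.8 to 8.60 for the 6 NK and granule genes. On the log2(TMM-scaled TPM + 1) scale the SD over strains was 0.62 for Cd3d, 0.64 for Cd3e and 0.84 for Cd3g, and between 0.82 and 1.15 for the NK and granule genes, beside a median of 0.32 over the 11629 genes with a median lung count of at least 10. Gzma exceeded 98.4% of these genes in its SD and Cd3d 90.1%. After subtraction of the counting variance, the coefficient of variation over lungs was 0.94 for Gzma, 1.09 for Gzmb and 0.46 for Cd3e, whereas counting alone at the median depth gives 0.12, 0.23 and 0.19.

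The 9 genes with a median lung count of at least 10 were then compared over the 47 strains, to ask which of them rise and fall together. Pearson's r was taken on rank inverse normal values of TMM-scaled TPM, with 100000 two-sided permutations of the strains, whose smallest possible p is 1e-05, and with Benjamini-Hochberg adjustment over the 36 pairs. In all, 29 of the 36 pairs had a positive r at q ≤ 0.1 (28 by Spearman's rho). Of the 67611006 pairs among all genes of that depth in lung, 10.6% had an r as high as the weakest of these 29, 1.14% an r of at least 0.5 and 0.067% an r of at least 0.7. Of the 36 pairs, 19 had an r of at least 0.5 and 13 an r of at least 0.7.

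The CD3 genes were taken as one set, fixed by name and not found from the values. Cd3d and Cd3g, the 2 genes that start next to each other and are spelled out above, had r = 0.863 (rho = 0.844, adjusted p = 2.25e-05, permutation test). Cd3e had r = 0.579 with Cd3d and 0.597 with Cd3g. Without the 2 strains farthest from the median, the 3 values were between 0.569 and 0.824.

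The 6 NK and granule genes were taken as the other set, also by name. All 15 of their pairs passed the threshold, with r between 0.580 and 0.879. Ncr1, a receptor gene on chromosome 7, and Gzma, a protease gene on chromosome 13, had the highest r of all 36 pairs, 0.879 (rho = 0.873, adjusted p = 2.25e-05, permutation test, 0.850 without the 2 farthest strains). Ncr1 and Prf1 had r = 0.864, and Gzma and Prf1 r = 0.846. Klrd1 and Gzmb had the lowest r of the set, 0.580. Nkg7 stood between 0.709 and 0.767 with the 5 others.

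Between the sets the values were lower in the median, with r from 0.03 to 0.59 over 18 pairs. Their median was 0.31, beside 0.597 within the CD3 genes and 0.73 within the NK and granule genes. The ranges overlapped, since Cd3g with Nkg7 (0.593) stood above Cd3d with Cd3e (0.579) and Klrd1 with Gzmb (0.580). Of these 18 pairs, 11 passed the threshold. Cd3e passed with Nkg7 only (r = 0.290, adjusted p = 0.0593) and had r between 0.03 and 0.18 with Prf1, Ncr1, Klrd1, Gzma and Gzmb. Cd3g had r of at least 0.340 with all 6 and reached 0.593 with Nkg7. The difference in r within and between sets was not tested. When the leukocyte gene Ptprc was taken out by regression, a step added after seeing the data, all 18 pairs within the sets still passed and 2 of the 18 pairs between them did. Without TMM scaling of the TPM, 16 of the 18 passed.

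**Figure D3:**
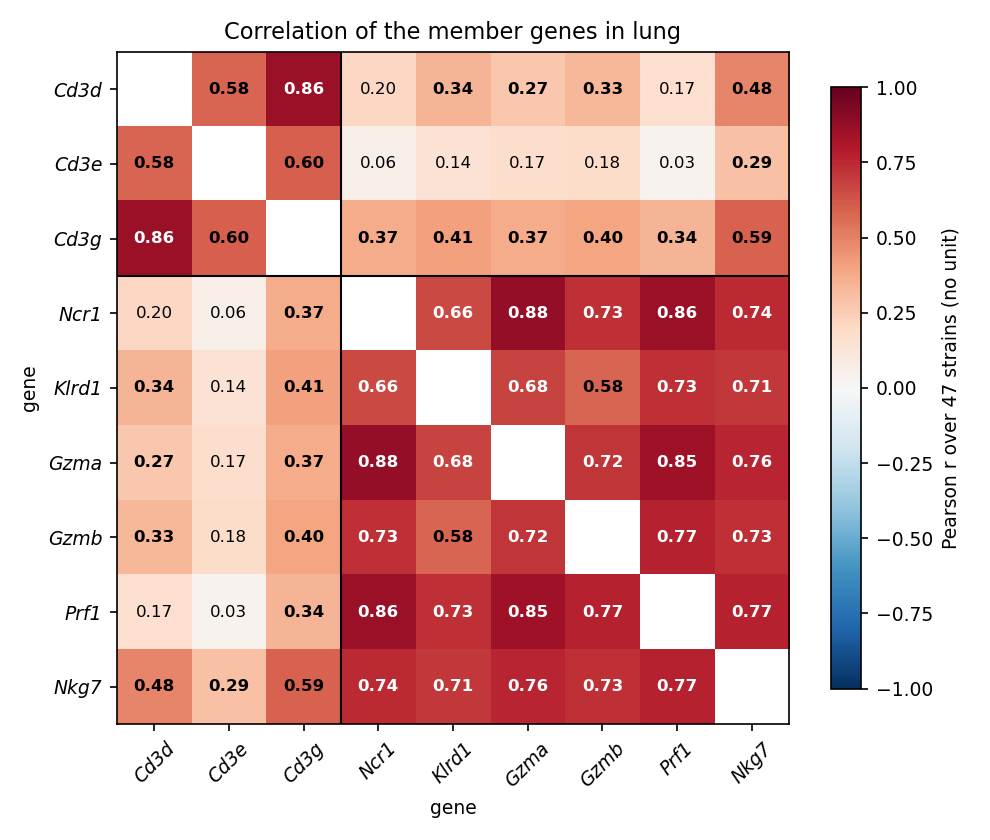
Pearson's r (colour scale and numbers) between the 9 genes over 47 lungs, with bold numbers for pairs at q ≤ 0.1. The 3 CD3 genes fill the upper left block with r from 0.58 to 0.86 and the 6 NK and granule genes the lower right block with r from 0.58 to 0.88, while the blocks joining them hold values from 0.03 to 0.59.

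Single strains show how the sets part. The lung of CC016 had the highest TPM of Gzma (612 counts), Gzmb (180), Prf1 (307) and Nkg7 of all 47, and its mean normal score, in SD units over the strains, was 1.98 for the NK and granule genes and 0.14 for the CD3 genes. In the same lung the neutrophil list ranked 3 of 47 (72.3 CPM, median 15.2) and the B cell list 44 (11.6 CPM, median 42.6), and the part of these cells in its values was not tested. CC013 was high in both, with 1.89 and 1.17. CC020 was the reverse of CC016, with -0.50 for the NK and granule genes and 1.48 for the CD3 genes, and CC045 likewise had -0.82 and 1.03. CC015 was low in both, with -1.25 and -2.01, and its lung held 21 counts of all 10 genes together. In that library Rn45s took 71.7% of the counts, the TMM-scaled total of 2614464 was the lowest of the lungs, and Alb stood at 371 CPM, the second highest lung. Its summed level was also the lowest of the 47 for the B cell list and Ptprc, and ranked 44 for the macrophage list. It was lowest for the T cell marker list too, which holds the CD3 genes and Cd8a themselves. The part of library composition in these values was not tested. Without CC015 and CC016, 26 of the 36 pairs passed, among them all 18 within the sets.

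**Figure D4:**
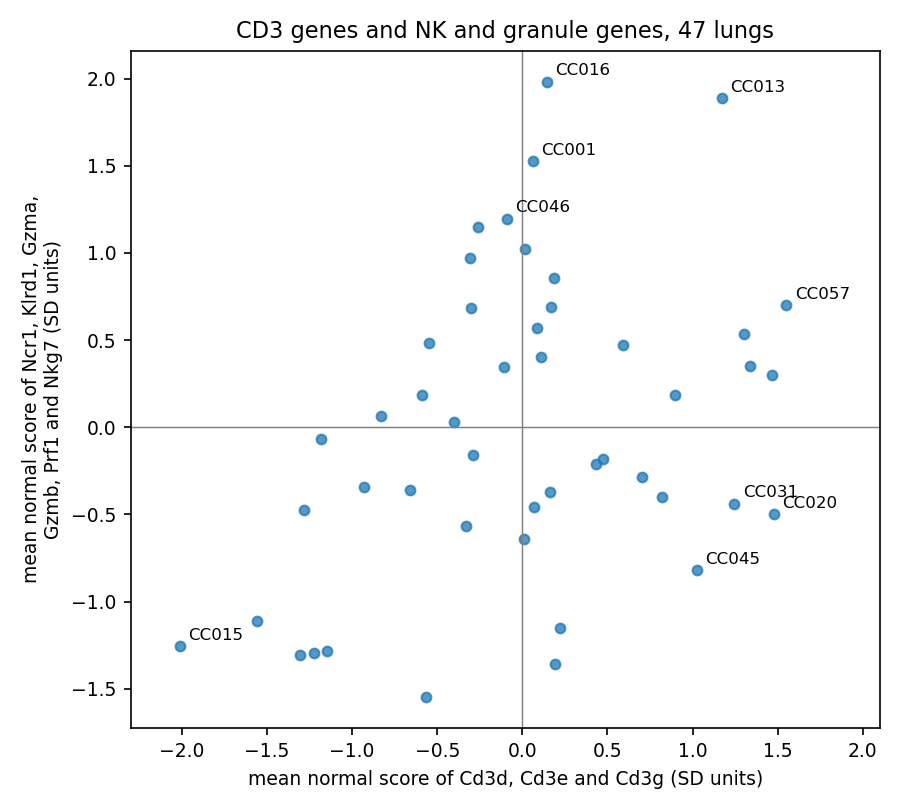
Mean normal score of the 3 CD3 genes (horizontal axis, SD units over strains) and of the 6 NK and granule genes (vertical axis, the same unit) in the lung of 47 strains, 1 point per strain. CC016, CC001 and CC046 are high on the vertical axis only, CC020, CC031 and CC045 on the horizontal axis only, CC013 on both, and CC015 is low on both.

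The genes outside the 10 whose lung pattern was most like a member were, for Cd3e, Fam78a (r = 0.666), Cd5 (0.656), Lat (0.641), Rasgrp1 (0.615) and Cd28 (0.599) over 47 strains. Cd5, Lat and Cd28 encode a surface receptor, a signalling adaptor and a costimulatory receptor of T cells. For Ncr1 they were Ctsw (0.754), Il18rap (0.746), Klre1 (0.733), Il2rb (0.731) and Ccl5 (0.709), and these 5 genes were also nearest to Gzma, led by Ccl5 (0.775). Gzmb had Ccl5 (0.761), Il2rb (0.706), Tbx21 (0.678), Ctsw (0.644) and Il18rap (0.622). Klrd1 had Klre1 (0.743), Emg1 (0.732), Il18rap (0.663), Tbx21 (0.614) and Il2rb (0.608). Klre1 lies 5958 bases from Klrd1 in the NK receptor cluster, and Emg1, which encodes a ribosome assembly factor, lies 4879604 bases away on the same chromosome. At r of at least 0.5, with the other members counted too, Cd3e had 34 of 11628 genes (0.292%), Ncr1 26 (0.224%) and Gzma 27 (0.232%). These shares were below the 1.14% of all gene pairs in lung. Among the members only Cd3g stood above it, with 153 genes (1.32%), and Cd3d (1.06%) and Nkg7 (0.869%) were nearer to it than Cd3e.

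Markers of other cells moved with some of these genes in lung. Ptprc, expressed by all leukocytes, had r between 0.369 and 0.574 with all 9 genes, each at q ≤ 0.1 over 45 tests. The B cell gene Cd79a passed with Cd3d (r = 0.385), Cd3e (0.351) and Cd3g (0.436) and had r between 0.02 and 0.18 with the NK and granule genes. The neutrophil gene S100a8 passed with Klrd1 (0.347), Gzma (0.353), Prf1 (0.334) and Nkg7 (0.412), and the macrophage gene Adgre1 with Cd3d only (0.323). By Spearman's rho, Cd3d with Cd79a (adjusted p = 0.122, permutation test), Cd3d with Adgre1 (0.183) and Prf1 with S100a8 (0.196) did not pass. How many of all lung genes reach such an r with these markers was not counted, so that the calls are not read as particular to the 9 genes. The library total passed with none, with r from -0.10 to 0.20. Beside the T cell list, with all 9 markers found and a summed lung level of 6.12 to 38.9 CPM, the B cell list (7 of 7 found) ran from 3.44 to 141.1 CPM, the neutrophil list (5 of 5) from 2.5 to 137 and the macrophage list (6 of 6) from 145 to 369. The part of these cells in the joint variation was not tested.

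In liver and kidney the 10 genes were too sparse to be followed over strains. No gene reached a median count of 10 in either, the highest medians being 2 in liver and 3 in kidney, so that no pair within these tissues and no gene between tissues could be tested at the set minimum. All 10 genes together summed to a median of 13 counts per liver and 14 per kidney, beside 357 per lung. The 1007 counts of all livers held 305 of the CD3 genes, 158 of Ncr1 and Klrd1 and 536 of the granule genes, and the 1011 of all kidneys held 295, 191 and 491. Relative to the CD3 genes, Ncr1 and Klrd1 made up 0.518 in liver, 0.647 in kidney and 0.871 in lung.

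A single liver stood apart. The liver of CC016 held 139 counts of the 10 genes, among them 34 of Gzma, 32 of Gzmb, 32 of Cd3g and 14 of Nkg7, and it stood at 34.8 CPM, with the next liver, that of CC013, at 10.8. The same library ranked first of the 47 livers for the macrophage and neutrophil lists and for Ptprc, and 22 for the B cell list. It also ranked first for the T cell and NK cell lists. These 2 lists hold Cd3d, Cd3e, Cd3g, Cd8a, Ncr1 and Klrd1 themselves, so that these 2 ranks do not stand as support. Its Rn45s share was 60.1% and its TMM-scaled total 3996057. Among kidneys, CC020 was highest at 9.74 CPM with 15 counts of Cd3g, 7 of Cd3e and 5 of Cd3d, but 0 of Ncr1, Klrd1 and Gzma, and CC016 was next at 7.87. The lungs of CC016 and CC013 were the first and second of all lungs, at 113 and 93.5 CPM.

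With the count minimum dropped, after seeing that nothing could be tested with it, r between 2 tissues of the same mice could be taken for each of the 10 genes in each of the 3 pairs of tissues, which share their libraries. An r of at least 0.3 was found for 5 of the 10 genes between liver and lung, 4 between liver and kidney and 5 between lung and kidney, beside 14.3%, 19% and 16.5% of all genes with a count in both. The highest r was that of Gzma between lung and kidney, with r = 0.716 (rho = 0.698, adjusted p = 0.0003 over 30 tests, permutation test, 0.676 without the 2 farthest strains). The kidney counts behind it are small, with 16 in CC046, 19 in CC030 and 10 in CC016, whose lungs held 282, 280 and 612, and with 0 in CC015 and CC039, whose lungs held 2 and 17. Other mice with high lung counts had few in kidney, with 4 in CC013, 2 in CC042 and 0 in CC043. The lungs of these mice held 423, 313 and 243. Summed over mice, Gzma in kidney was 3.82% of its lung rate, while Sftpc, which is far more abundant in lung, was at 0.129% of its lung rate in kidney. Within the kidneys, Gzma had r = -0.20 with Sftpc, 0.01 with Ptprc, 0.516 with Ncr1 and 0.389 with Prf1. Within the livers, the same values were 0.205, 0.289, 0.389 and 0.320. The part of RNA from other tissues or of leukocyte number in the relation between tissues was not tested. Between liver and lung, Gzma had r = 0.538 and Ncr1 0.495, and Ncr1 had 0.487 between lung and kidney. Nkg7 had 0.373 and Cd3g 0.363 between lung and kidney, and the other genes there lay between -0.02 and 0.31.

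**Figure D5:**
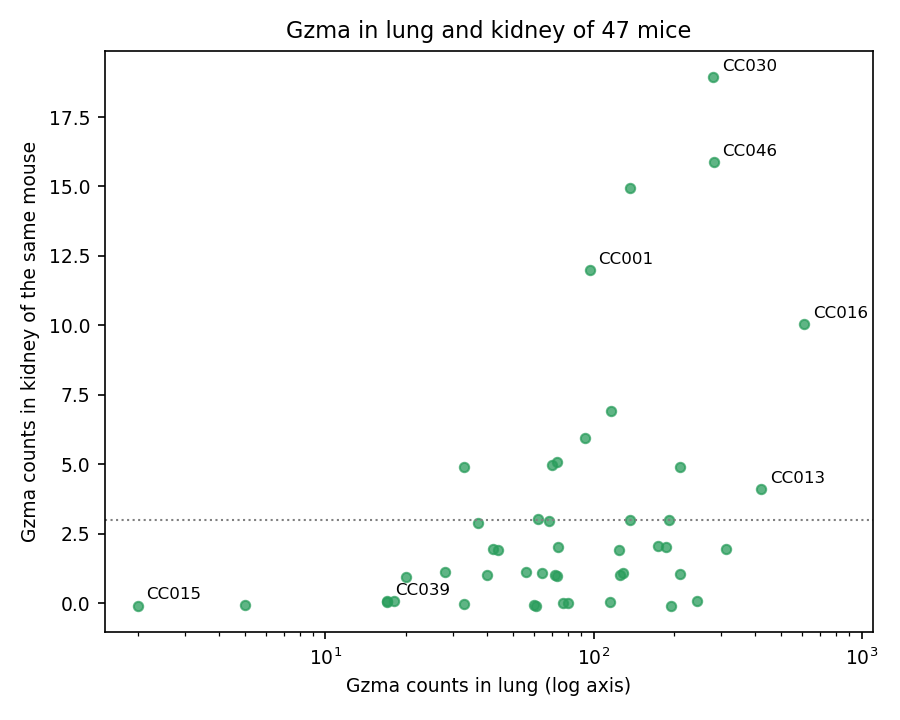
Counts of Gzma in the lung (horizontal log axis) and in the kidney (vertical axis) of 47 mice, not scaled for depth and with points shifted slightly along the vertical axis where they would overlap; the dotted line marks 3 counts. Kidney counts above 10 are found in mice with about 100 or more counts in lung, and the lungs with the fewest counts, such as CC015, have kidneys at 0. Some mice with high lung counts also have few in kidney, as CC013 with 423 and 4.

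Other genes of these pathways were read from lists of T cell receptor signalling, NK cell receptors and regulators, and the cytotoxic granule. Of the 27 T cell genes, 10 passed the filter, and 9 of these were called higher in lung than in liver and 10 of 10 higher in lung than in kidney, beside 31.2% and 24.6% of all tested genes. Many genes of this list and of the next passed the filter through the lung, as Cd2 did with means of 9.74 CPM in lung, 0.484 in liver and 0.374 in kidney, so that their counts and medians do not stand as support. Cd2, an adhesion receptor of T and NK cells, had log2 fold changes of -4.38 for liver over lung and 4.92 for lung over kidney. Il7r, the receptor for interleukin 7, had -4.18 and 4.50. Cd247, the zeta chain of the receptor complex, had -3.60 for liver over lung, and Cd28 had 3.54 for lung over kidney. Between liver and kidney, Icos (1.63), Ubash3a (1.30) and Cd4 (1.26) were called higher in liver, as were 14.7% of all tested genes, but none of the 3 passed on either TPM scale or after scaling to total counts.

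Of the 27 NK cell genes found in the files, 8 passed the filter. Against liver, 7 were called higher in lung and 1 lower, and against kidney all 8 were called higher in lung, beside 31.2% and 24.6% of all tested genes higher in lung. Itga2, an integrin chain carried by NK cells and also by other cells, had a log2 fold change of -5.71 for liver over lung and 3.91 for lung over kidney. Sh2d1b1, a signalling adaptor of NK cells, had -4.36 for liver over lung. Il18rap, a chain of the interleukin 18 receptor, had -4.31 and 3.95, and Cd244, an NK receptor, had 4.08 for lung over kidney. The exception was S1pr5, a receptor for sphingosine phosphate, which was called higher in liver than in lung (1.67), as were 23.7% of all tested genes, and higher in liver than in kidney (5.18), with means of 9.59 CPM in liver, 2.93 in lung and 0.228 in kidney. Between liver and kidney, Tyrobp, a signalling adaptor of NK and myeloid cells, was also higher in liver (1.48), and Itga2 (-1.80), Sh2d1b1 (-1.30) and Klrb1b (-1.23) were called higher in kidney, as were 22% of all tested genes. Tyrobp lost its call on both TPM scales and with total counts, and the 3 genes higher in kidney lost theirs on log2(TPM + 1).

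Of the 15 granule genes, 6 passed the filter, with 5 called higher in lung than in liver and 6 of 6 higher than in kidney, beside 31.2% and 24.6% of all tested genes. Unc13d, which primes granules for release, had log2 fold changes of -4.72 for liver over lung and 5.05 for lung over kidney, and the chemokine gene Ccl5 had -2.88 and 3.39. Serpinb9, a granzyme B inhibitor, had -2.51 for liver over lung, Srgn, the granule proteoglycan serglycin, had -2.5, and Ctsw, the cathepsin of cytotoxic cells, had -2.27. Ctsc, the cathepsin that activates granzymes, had 2.74 for lung over kidney and 2.04 for liver over kidney. Several of these genes are also expressed outside lymphocytes. Over the genes that passed the filter, the median log2 fold change of liver over lung was -3.37 in the T cell list, -4.12 in the NK list and -2.5 in the granule list, beside -0.07 over all tested genes. The first 2 medians owe their direction in part to a filter that most of these genes pass through the lung. In the granule list, Ccl5 had median counts of 1 in liver, 43 in lung and 2 in kidney, and Ctsw 4, 42 and 8. The counts and median of that list therefore do not stand as support either.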

How the data were processed

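Single-end RNA-seq reads of 50 bases from 47 mice and 3 tissues were filtered with TagDust, aligned by the authors with STAR 2.5.3a to genomes made for each strain from Build37 with RefSeq annotation, and quantified with RSEM from uniquely aligned reads. The expected count deposited by the authors per gene and library was rounded to whole numbers and used for the tissue comparisons. The TPM deposited by the authors was scaled by TMM within tissues for the correlations, while FPKM, also deposited by the authors, went unused. Samples were grouped by the tissue and strain in their labels. Sequencing batches are not among the labels, and no fit has them as a term.

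Tissues were compared with limma-voom (limma 3.58.1, edgeR 4.0.16, R 4.3.3) in 1 fit with tissue and strain as covariates, over the 12127 genes that exceed 1 CPM in 30% or more of all libraries, calling a gene when the Benjamini-Hochberg q was ≤ 0.1 and the log2 fold change 1 or more in size. Strain pairs the tissues, since they come from the same mouse. Deviations from the tissue means had a median r between 0.179 and 0.215 over the 3 pairs of tissues of the same mouse, beside -0.0078 to -0.0046 for different mice. On simulated counts for liver against kidney with 12127 genes, 200 of 200 genes changed by a log2 fold of 2 were recovered with 0 false calls, and a simulated r of 0.7 was found as 0.691 on average. Apart from the changed genes, both simulated tissues were drawn from the same means, with no strain effect. The simulation therefore does not test the scaling between tissues of unlike composition.

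Correlations used rank inverse normal values (Blom offset 0.375), members with a median count of at least 10, and 100000 permutations, in Python 3.11.15 (numpy 2.4.6 and scipy 1.17.1). All 10 genes are named. From the context lists, the 3 genes per comparison with the largest change past the threshold are named, and every called gene where 5 or fewer were called. The 5 genes most like Cd3e, Klrd1, Ncr1, Gzma and Gzmb in lung are named. The members, lists and alternatives were chosen with earlier results of these data known. Alternatives covered the replicate block, scaling, filters, tests (edgeR, DESeq2 1.42.0), TPM with pseudocounts of 1 and 0.1, thresholds, count minima and left-out strains. Floors and shares cover counting error only.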

Additional observations from a re-analysis of the deposited data

How the results depend on the processing

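Lung exceeded liver and kidney, with the call kept, for each of the 7 members in each alternative that tested them. Cd3d and Cd3e were not tested with at least 10 counts in 30% of the libraries. Genes called higher or lower between liver and lung numbered 6657, and 12142 without the low-count filter, which tests more genes. Between liver and kidney they numbered 4440, and 6775 with total counts in place of TMM. Without the replicate block (strain left out although the mouse pairs the tissues), 6677, 4458 and 5639 genes were called for liver against lung, liver against kidney and lung against kidney, beside 6657, 4440 and 5619, and no member changed its call. The median of all genes moved by -1.15 and -1.46 (liver against lung), -0.64 and -0.86 (liver against kidney) and 0.49 and 0.58 (lung against kidney) on log2(TPM + 1) and log2(TPM + 0.1), and by -1.37, -0.88 and 0.48 with total counts. The share of calls higher in the first tissue moved from 43.2% to 12.6%, 12.4% and 13.7% for liver against lung under these 3 scalings (57.5% without the filter), from 40% to 16.3%, 14.4% and 14.5% for liver against kidney, and from 53.2% to 70.5%, 71.6% and 68.7% for lung against kidney.

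Liver against kidney turned sign for members, all uncalled. On log2(TPM + 1) the log2 fold changes were -0.055 (Cd3d), -0.073 (Cd3e), -0.11 (Cd3g), -0.11 (Ncr1), -0.15 (Prf1) and -0.15 (Nkg7). On log2(TPM + 0.1) they were -0.085, -0.16, -0.20, -0.36, -0.49 and -0.37 in the same order. With total counts they were -0.21, -0.22, -0.24, -0.53, -0.48 and -0.40, and -0.064 for Gzma. Ubash3a turned to -0.10 on log2(TPM + 0.1) and -0.0021 with total counts. The cause was not tested.

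Of the 36 lung pairs, 29 were called, and 10 of 10 with a median count of at least 30, which leaves fewer genes. With Ptprc regressed out, r turned to -0.037 (Cd3d and Prf1), -0.10 (Cd3e and Ncr1), -0.014 (Cd3e and Klrd1), -0.012 (Cd3e and Gzmb) and -0.16 (Cd3e and Prf1). Cd3e and Prf1 also turned to -0.034 without the 2 farthest strains and -0.011 without CC015 and CC016. Marker tests called numbered 17, 34 on TPM without TMM and 9 with a median count of at least 30. Between tissues 0 genes could be tested at the minimum, 1 was called at a median count of at least 3 (Prf1, lung and kidney) and 16 of 30 with no minimum. By Spearman's rho, Klrd1 and Prf1 between liver and lung (adjusted p = 0.211 and 0.241, permutation test) did not pass with no minimum. Gzmb and Prf1 between lung and kidney (0.22 and 0.211) did not pass either. How many of all genes this test would call was not counted, so that the 16 are not read as particular to these genes. Differences of a pair's r between tissues could likewise not be tested, and 7 of 18 were called with no minimum, on kidney and liver medians of 0 to 3 counts.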
